A study of Mus musculus with 39 samples.

Results

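Potassium channel genes were taken as the protein-coding genes of the mm10 annotation on chromosomes 1 to 19 whose symbols start with Kcn. This gave 90 of 20807 genes, in 19 subfamilies by the letter after Kcn, and 2 further genes with such symbols were not analysed here. The name covers more than channels. Of the 90 genes, 74 code for subunits that form or modify the pore, and 16 for accessory proteins that bind to channels or act on their assembly.

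Potassium channels let potassium ions pass through the cell membrane along their gradient, which holds the resting potential and ends electrical signals in nerve, muscle and gland cells. The pore is built from several subunits around a central path whose selectivity filter is shared across the family, while the gate differs: some channels open with voltage, some with intracellular calcium or sodium, some with G proteins or low ATP, and background channels are open at rest. Most of the genes are best known from differentiated cells that are excitable or transport ions, while ES cells are undifferentiated and divide rapidly.

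The cells were of the R1 line, pluripotent embryonic stem (ES) cells of the mouse. For wrapping (group H3.wrap-seq, 4 libraries from 2 independent experiments), crosslinked chromatin was cut with MNase, nucleosomes were recovered with an antibody to histone H3, and the balance of longer to shorter protected DNA fragments gave a wrapping index, a z-score with no unit. For replication timing (RT), DNA labelled with BrdU was collected from 4 fractions of S phase, S1 (early) to S4 (late), with 2 libraries each, and early over late fractions gave a log2 ratio. The deposited lists hold 1243 nucleosome wrapping domains (NRDs) and 1811 RT domains, sex chromosomes included, each with 1 value per domain and no replicate or read number. The text of the study counts more NRDs than this list holds, for a reason not found here. Genes in stretches between domains have no call. The study states reads per library, which do not give the depth behind a domain, and tracks of single RT replicates were not used here, so all differences are descriptions without a test.

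A domain with a positive wrapping index was called tight (TiNRD) and the others loose (LoNRD), and an RT domain with a positive log2 value was called early and the others late. Each gene took the calls and values of the domains that held its midpoint. Genes of 1 domain therefore share its value, and the 90 members lay in only 63 NRDs and 70 RT domains.

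Most potassium channel genes lay in tightly wrapped, early replicating chromatin, but late replication was more common among them than among genes in general. TiNRDs held 73 of the 89 members with an NRD call (82%), close to the 79.5% of all protein-coding genes. Early RT domains held 59 of 89 members (66.3%), against 77.9% of all genes. The median wrapping index of the members was 0.82 (all genes 0.76), and the median log2 value of their RT domains was 0.90 (all genes 0.98). Gene by gene the family was thus close to all genes in wrapping, and later in timing.

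The calls of the 2 lists corresponded (TiNRD with early, LoNRD with late) for 70 of 88 members with both calls (79.5%), against 86.6% of all genes. There were 56 members in a TiNRD and an early RT domain (63.6%, all genes 72.5%) and 14 in a LoNRD and a late RT domain (15.9%, all genes 14.1%). The remaining 18 had unlike calls, and nearly all of them were of the same type. A TiNRD and a late RT domain held 16 members (18.2%), where the share over all genes was 7.82%. The opposite combination, a LoNRD and an early RT domain, held Kcnj3 and Kcnt2 (2 of 88, all genes 5.56%). Across the 88 members the wrapping index and the log2 timing value had a Spearman rank correlation of 0.69, and across 19923 genes of 0.72, with many points sharing domains.

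Since members share domains, single domains weigh in these shares. Each domain counted once, 45 of the 70 RT domains with a member were early (64.3%), 48 of the 63 NRDs were TiNRDs (76.2%), and calls corresponded in 55 of the 69 distinct pairs (79.7%). Over the domains with any gene these shares were 49.2%, 54.2% and 61.8%, so that the direction turns for timing and correspondence. This is no like comparison, since over all genes a domain with 1 gene then weighs as much as a domain with many, and a short list falls mostly in the latter. By genes at least 200 kb inside both of their domains, 46 of 60 members (76.7%) were early, against 84.9% of all such genes, and 48 of 60 were tight (80%), against 87%. Calls corresponded there in 58 of 60 members (96.7%), against 95.3% of all genes. Away from borders members were thus still later than other genes, also less often tight, and no longer lower in correspondence.

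**Figure D1:**
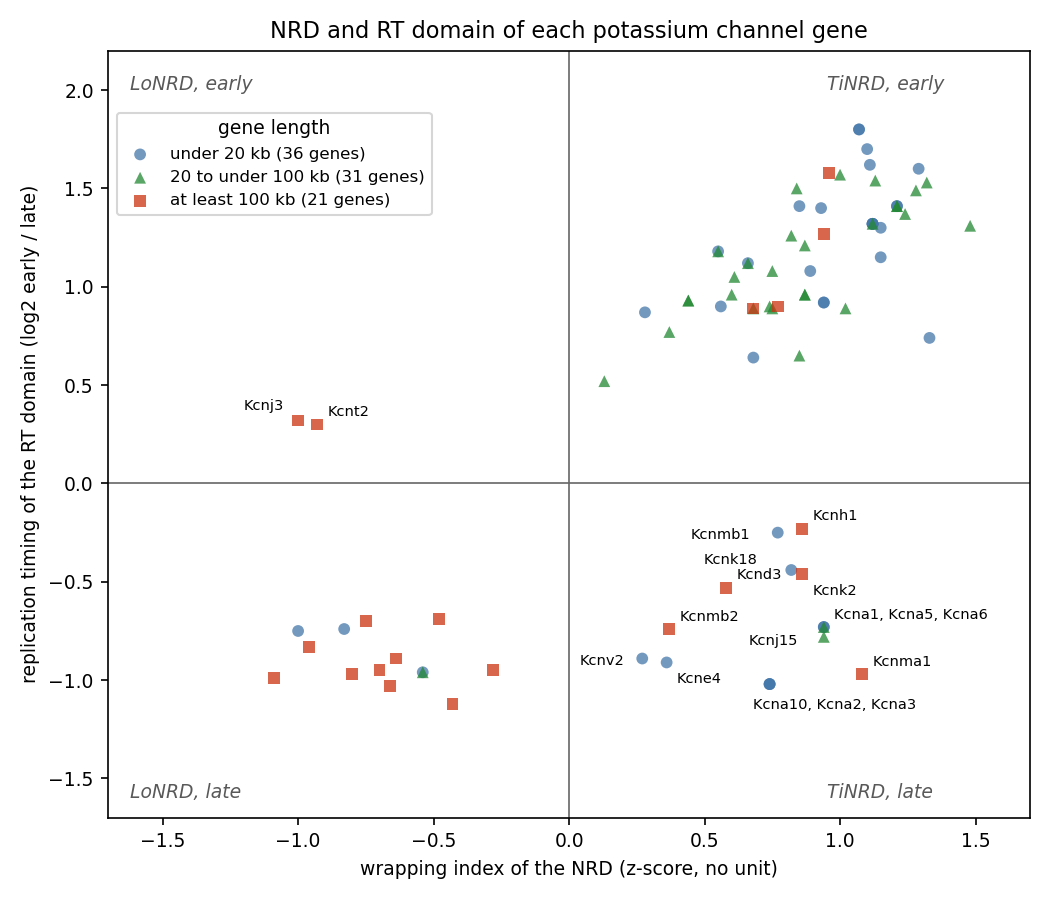
Wrapping index of the NRD (x axis, z-score with no unit) and log2 timing value of the RT domain (y axis) for the 88 potassium channel genes with both calls, 1 point per gene with points of shared domains on top of each other, coloured and shaped by gene length. The 16 named genes at the lower right lie in a TiNRD and a late RT domain, and 10 of the 14 genes at the lower left measure at least 100 kb.

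The tight late members, like tight late genes in general, lay in short RT domains and near their ends. These domains had a median length of 950 kb over the 16 members and 1150 kb over all 1558 tight late genes, against 2250 kb for the RT domains of all members. The midpoints of the 16 tight late members were between 10.6 and 348 kb from the nearest end of their RT domain (median 135 kb), and the median over all tight late genes was 178 kb. Restricted to genes at least 200 kb inside both of their domains, 2 of 60 members (3.33%) were tight and late, and 3.38% of all such genes. The 2 were Kcna5 and Kcnj15. Counted by distinct pairs of an NRD and an RT domain, 12 of the 69 pairs with a member (17.4%) were tight and late, and 22.8% of those with any gene, with the same limit on the comparison. The cut at 200 kb removes most tight late genes by where they lie, among members and among all genes (473 of 1558 remain). Inside it the 2 shares were alike, so that the higher share over all members lay with genes nearer to the end of a domain.

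By role, late replication was most common among the voltage-gated pore-forming subunits (Kcna without Kcnab, Kcnb, Kcnc and Kcnd), whose channels open when the membrane depolarises and repolarise it. TiNRDs held 12 of these 16 genes (75%, all genes 79.5%), but early RT domains only 5 (31.2%, all genes 77.9%). Of the 16, 7 were tight and late, 4 loose and late and 5 tight and early. Of all roles this had the largest number and the largest share of late genes. Its median RT value was −0.73 and its median wrapping index 0.74.

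Most of this came from Kcna, the family related to the fly Shaker channel. Of its 8 pore-forming genes, 6 were tight and late, Kcna4 was loose and late, and Kcna7 was tight and early. The 6 lie in 2 groups of neighbouring genes. On chromosome 3, Kcna3, a channel well known from T lymphocytes, Kcna2, a channel of axons, and Kcna10 lay between bases 107036169 and 107195721. A TiNRD (chr3:107000001-109400000, wrapping index 0.74) began shortly before them, and a late RT domain (chr3:106050001-107200000, log2 value −1.02) ended shortly after them. The genes thus sat in the 200 kb between the border of wrapping and the border of timing, and only 17.4% of that late domain was in a TiNRD. Kcnc4, a gene for a channel with fast inactivation, followed in the same TiNRD beyond the RT border and was early (log2 value 0.90).

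On chromosome 6 the arrangement was different. Kcna5, a channel of the atrium of the heart, Kcna1, a channel of axons that is mutated in an inherited ataxia, and Kcna6 lay in a late RT domain (chr6:125850001-126800000, log2 value −0.73) that was wholly inside a TiNRD of 4800 kb (chr6:124200001-129000000, wrapping index 0.94). Early RT domains touched it on both sides, with log2 values of 1.56 and 0.65. The midpoints of the 3 genes were at least 2275 kb from an end of the TiNRD, so that here the unlike calls were not next to a border of wrapping. The 5 protein-coding genes of the late domain included these 3. In the count without the 6 tight late Kcna genes, an alternative chosen after seeing the data, 10 of 82 members (12.2%) were tight and late and 59 of 83 (71.1%) were early.

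**Figure D2:**
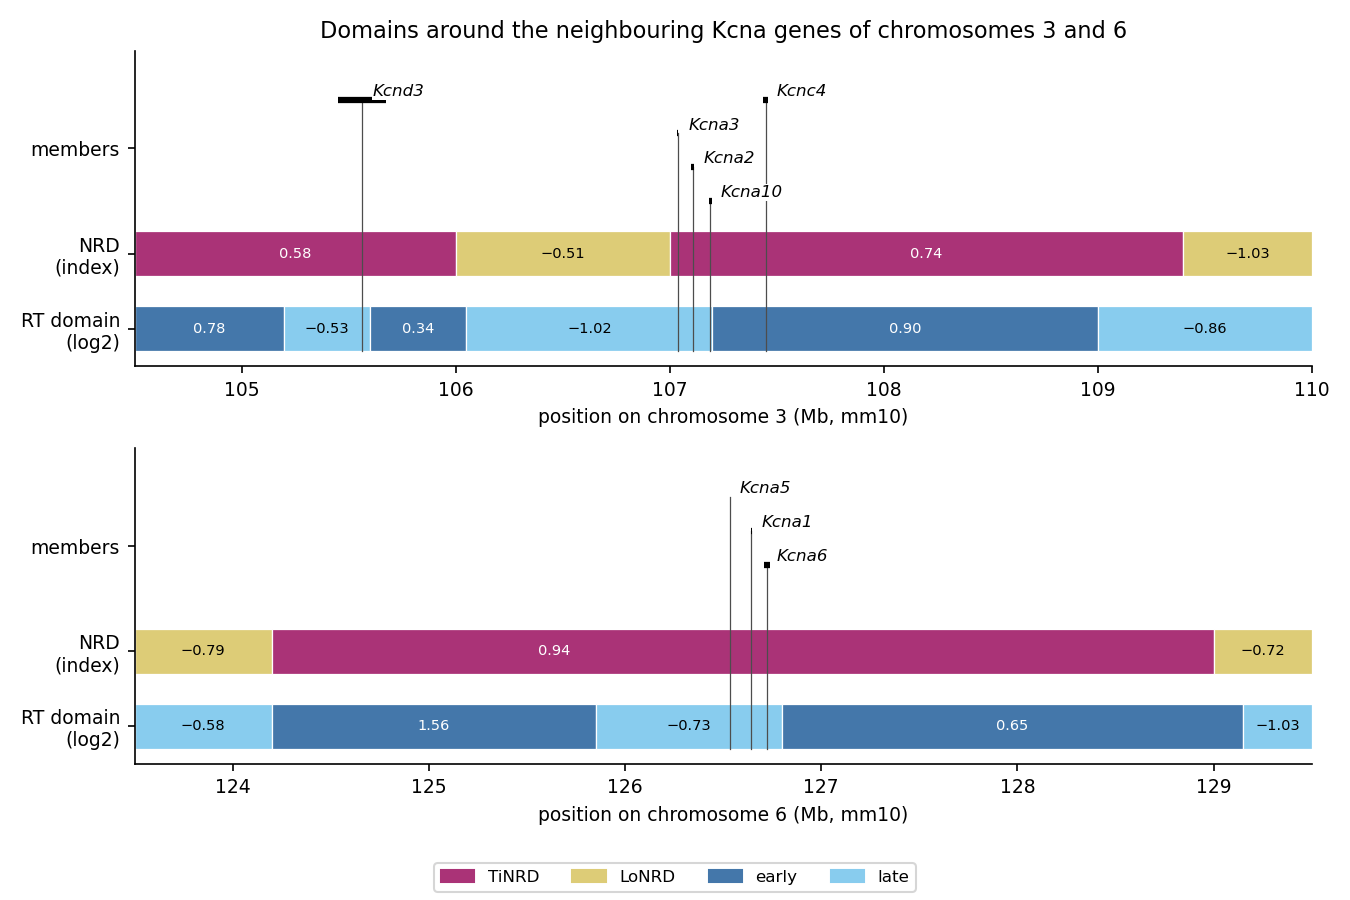
Domains of both lists (coloured boxes, with wrapping index or log2 timing value) and potassium channel genes (black bars, with a line at the midpoint) on parts of chromosomes 3 and 6 (x axis, position in Mb, mm10). Kcna3, Kcna2 and Kcna10 lie between the start of a TiNRD and the end of a late RT domain, and Kcna5, Kcna1 and Kcna6 in a late RT domain inside a TiNRD.

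The Kcnc and Kcnd genes split between kinds of domain within their subfamilies. Kcnc1, a channel of fast-firing neurons, was tight and early (wrapping index 1.12, log2 timing 1.32), as was Kcnc4, and Kcnc2 was loose and late (wrapping index −0.96, log2 timing −0.83). Kcnd2 and Kcnd3 both carry transient outward current in heart and brain. Both were late, Kcnd2 in a LoNRD (wrapping index −0.80, log2 timing −0.97) and Kcnd3 in a TiNRD (wrapping index 0.58, log2 timing −0.53). Close relatives with like function were thus found in opposite kinds of domain. Kcnb2, which carries delayed rectifier current in neurons, was loose and late (wrapping index −0.28, log2 timing −0.95).

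The modifying subunits Kcnf, Kcng, Kcns and Kcnv form no channel on their own and join Kcnb subunits. They were tight in 9 of 10 cases (90%, all genes 79.5%) and early in 8 of 10 (80%, all genes 77.9%). Kcnf1 had an NRD of high wrapping index (1.33) with a lower timing value (0.74), and Kcns3 had the values closest to 0 of the tight early members (wrapping index 0.13, log2 timing 0.52). Both Kcnv genes were late. Kcnv2, needed for the light response of photoreceptors, was tight (wrapping index 0.27, log2 timing −0.89), and Kcnv1 loose (wrapping index −1.0, log2 timing −0.75).

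Among the Kcnq genes, whose channels open slowly at voltages near rest, Kcnq5 was loose and late (wrapping index −0.64, log2 timing −0.89). Kcnq3 had no NRD call at its midpoint and an early RT call (0.62). LoNRD covered 37.8% of its body and TiNRD none, so that no part of Kcnq3 with a call was tight.

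The Kcnh genes (the ether-à-go-go family) divided by length. Kcnh2, whose channel repolarises the heart, Kcnh3, Kcnh4 and Kcnh6 measured between 18 and 32 kb, and all 4 were tight and early. Kcnh5, Kcnh7 and Kcnh8 measured between 280 and 491 kb and were loose and late. Kcnh1, at 319 kb, was tight and late, and its log2 value of −0.23 was the closest to 0 of all late members. Kcnh5 had the lowest timing value of the subfamily (−1.03).

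The inward rectifiers (Kcnj) pass potassium more easily into the cell than out of it. They were tight in 12 of 15 cases and early in 12 of 15 (80% each). These shares were close to those of all genes (79.5% tight, 77.9% early). Kcnj8 (wrapping index 0.56, log2 timing 0.90) and Kcnj11 (wrapping index 1.12, log2 timing 1.32), the pore subunits of ATP-sensitive channels, were both tight and early. The 4 genes for G-protein-gated subunits were not alike. Kcnj5, Kcnj6 and Kcnj9 were tight and early, whereas Kcnj3 lay in a LoNRD of wrapping index −1.0 and an early RT domain of log2 value 0.32. Kcnj2 and Kcnj16, neighbours on chromosome 11, were the only protein-coding genes with a midpoint in their LoNRD (chr11:110600001-112500000, wrapping index −0.54), and were late (−0.96). Kcnj15 was tight and late (wrapping index 0.94, log2 timing −0.78), in the TiNRD on chromosome 16 that also held Kcnj6 (log2 value 1.27).

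All 13 genes of the 2-pore-domain channels (Kcnk), which carry background current, lay in TiNRDs, with wrapping indices between 0.55 and 1.21. Of the 12 with an RT call, 10 were early (83.3%). Over all genes 79.5% were tight and 77.9% early. Kcnk4 and Kcnk7 shared the highest timing value of the members (1.80). The late genes were Kcnk2, a channel that opens with stretch of the membrane (wrapping index 0.86, log2 timing −0.46), and Kcnk18, a channel of sensory neurons (wrapping index 0.82, log2 timing −0.44). Kcnk1 had no RT call at its midpoint. Among subfamilies with at least 5 genes, only Kcnk and Kcnm had all members in TiNRDs, and Kcnm had 2 of 5 early.

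Of the channels opened by calcium, Kcnn1 (wrapping index 1.13, log2 timing 1.54), Kcnn3 (wrapping index 0.96, log2 timing 1.58) and Kcnn4 (wrapping index 1.29, log2 timing 1.60) were tight and early, and Kcnn2 was loose and had the lowest timing value of all members (wrapping index −0.43, log2 timing −1.12). Kcnma1, the pore gene of the large-conductance channel, was tight and late (wrapping index 1.08, log2 timing −0.97). It combined the highest wrapping index of the tight late members with nearly their lowest timing value. The accessory genes of the same channel, Kcnmb1 to Kcnmb4, were all tight. Kcnmb1, the subunit of smooth muscle (wrapping index 0.77, log2 timing −0.25), and Kcnmb2 (wrapping index 0.37, log2 timing −0.74) were late, and Kcnmb3 (wrapping index 0.37, log2 timing 0.77) and Kcnmb4 (wrapping index 0.60, log2 timing 0.96) early. Kcnma1 and its smooth muscle partner were therefore both tight and late, on different chromosomes.

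The sodium-activated channel genes differed most within a pair. Kcnt1 had the highest wrapping index of all members and was early (wrapping index 1.48, log2 timing 1.31), and Kcnt2 was loose and early (wrapping index −0.93, log2 timing 0.30). Kcnu1, a pore gene of sperm, was tight and early (wrapping index 0.61, log2 timing 1.05).

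The accessory genes (Kcnab, Kcne, Kcnip, Kcnmb and Kcnrg) were tight in 14 of 16 cases (87.5%, all genes 79.5%). Of the 16, 11 were early (68.8%, all genes 77.9%). Kcnab2 and Kcnab3, cytoplasmic partners of the Kcna subunits, were tight and early, unlike most of the Kcna genes, and Kcnab1 was loose and late (wrapping index −0.70, log2 timing −0.95). Kcnip1, Kcnip2 and Kcnip3, calcium-binding partners of the Kcnd subunits, were tight and early, and Kcnip4 lay in the NRD of lowest wrapping index of the members (wrapping index −1.09, log2 timing −0.99). Kcne1, Kcne2 and Kcne3 were tight and early and Kcne4 tight and late (wrapping index 0.36, log2 timing −0.91).

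Wide differences within the family went with gene length. Members ranged from 1.9 kb (Kcna3) to 1135 kb (Kcnip4), with a median of 30.8 kb, against 17.6 kb for all genes. Of the members under 20 kb, 33 of 36 were tight (91.7%, all genes of that length 78.9%), and of those from 20 to under 100 kb 31 of 32 (96.9%, all genes 84.1%). At least 100 kb, 9 of 21 were tight (42.9%, all genes 67.8%). Long members were thus mostly loose, while long genes in general were mostly tight.

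Timing showed the same drop in the longest class. Of the members of at least 100 kb, 7 of 22 were early (31.8%, all genes of that length 60.8%), with a median log2 value of −0.70 (all genes 0.60). From 20 to under 100 kb, 28 of 31 were early (90.3%, all genes 85%). Under 20 kb, 24 of 36 were early (66.7%, all genes 76.8%), and the other 12 included the Kcna genes of chromosome 3 and 2 of those of chromosome 6. The late members were therefore found at both ends of the range of length, with few between.

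Length within the class bears on the comparison, since the members of at least 100 kb had a median of 310 kb and all such genes of 169 kb. In a class chosen after seeing the data, genes of at least 200 kb, 6 of 16 members (37.5%) were tight against 54% of all genes, and 4 of 17 (23.5%) were early against 40.6%. The gap was smaller there for both measures, and the direction was the same. Genes of other ion channels (sodium, calcium, pacemaker, transient receptor potential and chloride channels) of at least 100 kb were tight in 16 of 28 cases (57.1%) and early in 15 of 28 (53.6%). Their median length was 157 kb, so that they too were shorter than the members of this class.

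**Figure D3:**
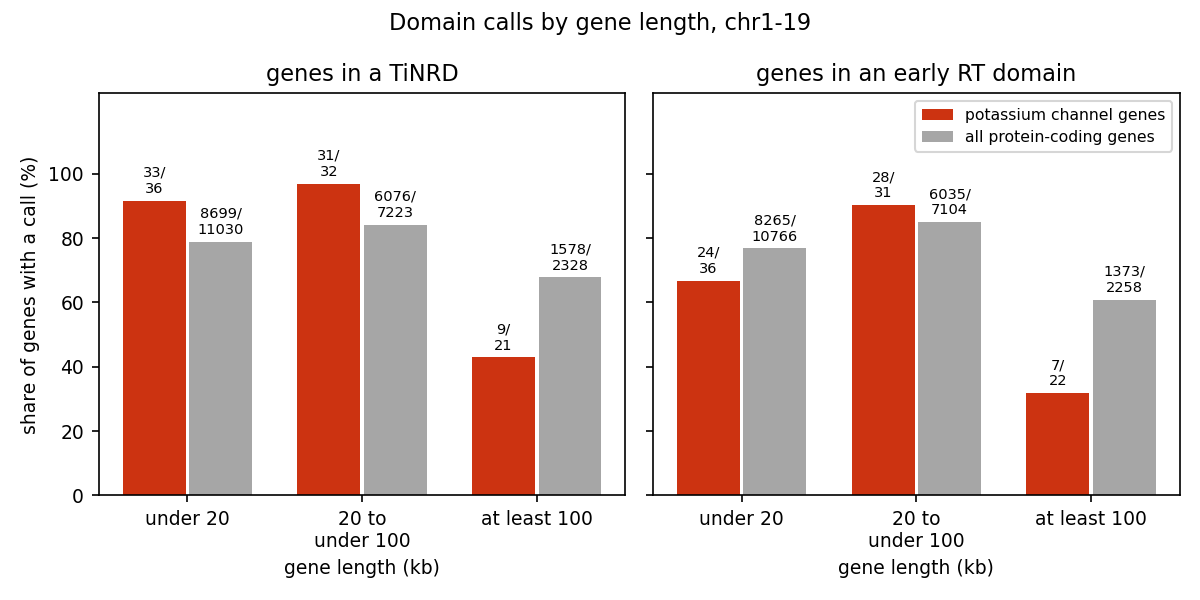
Share of genes in a TiNRD (left) and in an early RT domain (right) by gene length (x axis, kb), for potassium channel genes (red) and all protein-coding genes of chromosomes 1 to 19 (grey), as percent of genes with a call (y axis), with the counts above the bars. Among members of at least 100 kb, 9 of 21 were in a TiNRD and 7 of 22 in an early RT domain, the lowest shares of the 3 classes.

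The relation to length also ran within subfamilies. Of the 16 subfamilies with 2 or more members, 11 had members in both kinds of NRD. In 9 of these 11 the longest member was in a LoNRD, and in 7 every loose member was longer than every tight member. The 7 included Kcnd, Kcni (the Kcnip genes), Kcnn and Kcnt. Kcnj, whose longest member Kcnj6 (249 kb) was tight, and Kcnv were the exceptions to the count of 9. Kcna is in that count through the accessory gene Kcnab1 (269 kb), and the longest of its pore-forming genes, Kcna6 (32.3 kb), was tight. Over all 89 members the rank correlation of length with the wrapping index was −0.35 (−0.11 over all genes). It was −0.02 over the 68 members under 100 kb and −0.24 over the 21 of at least 100 kb. Neither class alone reached the value over all members, so that it came largely from the step between them.

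Some long genes reached across borders. The bodies of 12 of the 90 members lay in more than 1 RT domain, all of at least 100 kb. Those of 3 (Kcnq5, Kcnab1 and Kcnma1) lay in more than 1 NRD. Of all 20807 genes, 493 lay in more than 1 RT domain and 389 in more than 1 NRD. The 2 sets differ in length, since 22 of the 90 members but 2372 of the 20807 genes measured at least 100 kb. The counts for all genes of that length are not given here. Kcnk1 and Kcnq3 reached past the end of a domain into a stretch with no call. Kcnk10 was divided most evenly, with 52.6% of its length early and 47.4% late. Kcnma1 was 98% late by length, but its transcription start was in the early neighbour. Placed by the transcription start, 7 members changed their RT call (Kcnt2, Kcnh1, Kcnk1, Kcnip1, Kcnma1, Kcnq3 and Kcnj6) and none its NRD call. Kcnip1 and Kcnmb1 overlap on chromosome 11 (chr11:33629339-33993152 and chr11:33963013-33973641), and an RT border between their midpoints made Kcnip1 early and Kcnmb1 late.

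Members that share an NRD are not separate observations. TiNRDs or LoNRDs with 2 or more members numbered 16 and held 42 members. A TiNRD on chromosome 16 (chr16:89500001-98000000, wrapping index 0.94) held Kcne2, Kcne1, Kcnj6 and Kcnj15 among its 79 protein-coding genes, and the TiNRD of Kcna3 on chromosome 3 held 4 members among 55. Of the 12 late RT domains of the tight late members, 7 lay wholly inside TiNRDs and held 9 members, and 9 were early on both sides. Over the 409 late RT domains that hold any tight late gene, 39.1% lay wholly inside TiNRDs and 62.3% were early on both sides.

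Over the other ion channels as 1 group, late replication in tight domains was less common. Voltage-gated sodium channel genes had 0 of 14 members tight and late, calcium channel genes 4 of 25, pacemaker (Hcn) genes 0 of 4, transient receptor potential genes 2 of 21 and chloride channel (Clcn) genes 1 of 7. Together 7 of 71 were tight and late (9.86%), 56 of 72 tight (77.8%) and 53 of 72 early (73.6%). Potassium channel genes thus had a higher share of tight late genes and a lower share of early genes than these families together, in counts that include neighbours of 1 domain. By family the early share went from 14 of 22 transient receptor potential genes (63.6%), below that of the potassium channel genes, to 6 of 7 chloride channel genes (85.7%).

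Base composition followed the calls of both lists. The A/T content of the gene body had a median of 49.8% in tight and 61.3% in loose members, against 52.9% and 60.9% in all tight and loose genes. Tight late members (52.5%) lay between the tight early (49.2%) and the loose late members (61%). Early members had a median of 49.4% and late members of 56.4%, against 52.7% and 59.6% in all early and late genes. Over 89 members the rank correlation of A/T content with the wrapping index was −0.72, and over all genes −0.65. With the timing value it was −0.65 over 89 members and −0.61 over all genes. Kcnt2 had the highest A/T content (64.3%) and Kcna3 the lowest (39.7%), so that the member with the least A/T lay in one of the latest RT domains of the family. MNase cuts DNA rich in A/T more readily, and the part of this preference in the calls was not tested here.

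Gene density differed in the same way. Within the 1 Mb around the midpoint there was a median of 21.5 protein-coding genes for tight early, 9 for tight late and 3 for loose late members. The medians over all genes of these kinds were 19, 11 and 11. Loose late members thus lay in gene-poor surroundings even for that kind of chromatin, and their median length was 328 kb, against 12 kb for all loose late genes.

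Taken over all lengths, promoter sequence followed the domains less closely in the members than in all genes. The RefSeq table (GRCm38.p6) of promoters from 250 bases before to 50 after the start matched 68 of the 90 members, and the dinucleotide CG, which reads the same on both strands, was counted in them. Over all 15703 matched genes 95.3% of promoters held a CG and 60.2% held 10 or more, and of the members 98.5% and 51.5%. Over all genes the median count was 18 in tight early, 6 in tight late and 2 in loose late promoters. In the members it was 9.5, 8.5 and 18, so that the loose late members, mostly long genes, had a higher median than all genes of such domains.

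The Kcna promoters show how far neighbours in the same pair of domains can differ, and are printed 5′ to 3′ from the RefSeq table (GRCm38.p6) with CG in capitals. Kcna3 (chr3:107035912-107036211, plus strand, 37 CG) and Kcna10 (chr3:107182893-107183192, plus strand, 0 CG) share a TiNRD and a late RT domain. Kcna4 (chr2:107290339-107290638, plus strand, 20 CG) is loose and late, and Kcna7 (chr7:45405710-45406009, plus strand, 4 CG) tight and early. The windows begin before the RefSeq start, which lies within 307 bases of the GENCODE start for each of the 4 genes. For some other members the 2 starts were far apart: 239248 bases for Kcnip4, 43240 for Kcnj12, 22013 for Kcnh2, 21492 for Kcnj1 and 10286 for Kcnma1. Their promoters were kept in the medians and correlations.
Kcna3: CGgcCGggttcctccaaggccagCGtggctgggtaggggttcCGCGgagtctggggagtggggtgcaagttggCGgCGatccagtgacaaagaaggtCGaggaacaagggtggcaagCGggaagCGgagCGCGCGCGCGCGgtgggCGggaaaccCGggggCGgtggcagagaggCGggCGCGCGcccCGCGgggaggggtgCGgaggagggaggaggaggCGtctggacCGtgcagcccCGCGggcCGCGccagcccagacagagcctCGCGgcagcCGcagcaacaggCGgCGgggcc
Kcna10: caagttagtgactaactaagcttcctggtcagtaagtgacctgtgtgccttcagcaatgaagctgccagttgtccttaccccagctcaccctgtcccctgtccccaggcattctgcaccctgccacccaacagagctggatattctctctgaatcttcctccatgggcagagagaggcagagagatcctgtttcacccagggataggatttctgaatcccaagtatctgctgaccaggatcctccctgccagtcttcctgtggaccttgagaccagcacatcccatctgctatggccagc
Kcna4: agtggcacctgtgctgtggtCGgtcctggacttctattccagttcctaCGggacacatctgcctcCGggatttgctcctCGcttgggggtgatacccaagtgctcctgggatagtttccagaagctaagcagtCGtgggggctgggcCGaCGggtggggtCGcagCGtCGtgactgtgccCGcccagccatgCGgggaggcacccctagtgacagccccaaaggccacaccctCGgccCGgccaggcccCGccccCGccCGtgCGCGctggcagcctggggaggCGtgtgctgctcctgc
Kcna7: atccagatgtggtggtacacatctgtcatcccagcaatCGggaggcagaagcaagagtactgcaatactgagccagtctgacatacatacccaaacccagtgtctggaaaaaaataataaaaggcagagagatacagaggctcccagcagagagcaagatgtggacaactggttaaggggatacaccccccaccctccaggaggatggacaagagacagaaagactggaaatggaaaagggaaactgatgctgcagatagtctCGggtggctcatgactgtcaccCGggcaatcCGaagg

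The highest and the lowest count of the Kcna genes thus came from the same late RT domain. Kcna5, tight and late, had 4 CG, as many as the early Kcna7. Across the 68 members with a promoter entry the rank correlation of the CG count with the wrapping index was 0.05, while over 15532 genes it was 0.22. With the timing value it was 0.11 over 67 members and 0.25 over all genes. By length, it was 0.27 over the 48 members under 100 kb and −0.02 over 19 of at least 100 kb. With the wrapping index it was 0.09 over 49 members under 100 kb and 0.35 over 19 of at least 100 kb. Set against all genes of any length, the relation was thus not weaker for timing in the shorter members, nor for wrapping in the longer ones.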

How the data were processed

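H3-wrapping-seq gave the NRDs and sequencing of BrdU-labelled S-phase fractions the RT domains. For both, the authors trimmed reads with cutadapt 4.3, aligned them to mm10 with Bowtie2 2.5.1 and removed duplicates. The wrapping index that the authors deposited is a score, a smoothed z-score over 100 kb bins from which domains were called with homer2. RT values were deposited as log2 ratios of 50 kb windows after quantile normalisation. The paper's methods do not say whether replicates were pooled, nor how bins were combined into the value of a domain. Because of bins and smoothing, a border is uncertain by at least a bin, and calls of genes near borders are the least certain.

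Genes were placed by midpoint with Python 3.11.15, numpy 2.4.6 and scipy 1.17.1, using the GENCODE annotation of GRCm38, and plots were made with matplotlib 3.10.9. Placement was tested on simulated data and gave 0 differences from bedtools 2.31.1. RT domains reached the exact GRCm38 chromosome end on 18 of 19 autosomes. Counts, shares and medians were set beside those of all protein-coding genes, with no test. The members and lists were chosen with earlier results of these data known. Genes were named if they had unlike calls or no call, were among the 5 longest or shortest or among the 5 with the highest or lowest values of either list, lay within 100 kb of an NRD end, crossed a border, shared an NRD, had the highest or lowest A/T content, or stood for a kind of domain in a divided subfamily. Those named outside this rule were chosen after their values were seen, and some genes that meet it are counted but not reported here. Alternatives were other placements, domains of at least 500 kb, genes at least 200 kb inside, each domain counted once, other members, another denominator and coding length. Protein sequences, H4 and MNase input libraries, cell cycle and pulse-chase samples and expression were not used here.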

Additional observations from a re-analysis of the deposited data

How the results depend on the processing

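No paired analysis was possible because the 2 lists used here hold 1 value per domain; tracks of single RT replicates were not used here, and no result comes from a test. For 10 results, 58 alternative values were computed, those of the tight late share and those without the 6 Kcna genes having been chosen after seeing the data. A value counted as unchanged when it stayed within the exact (Clopper-Pearson) 95% binomial interval of the reported share, or within the order-statistic interval of the reported median, which treat genes as independent although they share domains. This held for 54 values. The other 4 all came from genes whose midpoints lay at least 200 kb inside both domains: early 76.7% (46 of 60), corresponding calls 96.7% (58 of 60), tight and late 3.33% (2 of 60), and a median log2 timing value of 1.12. That setting leaves out short domains and all genes near a border, and over all genes it gave 84.9%, 95.3% and 3.38% for the 3 shares. By transcription start, by most of the gene and with domains of at least 500 kb, the tight late share was 18%, 17.8% and 16.9%, against 7.61%, 7.91% and 7.06% of all genes. Over the alternatives run for each, the share of members in TiNRDs ranged from 76.2% to 82% and the median wrapping index from 0.75 to 0.91. For members of at least 100 kb, with 4 alternatives, the share in TiNRDs ranged from 40% to 42.9% and in early RT domains from 22.7% to 33.3%. Domains of at least 500 kb, genes at least 200 kb inside and each domain counted once were not run for the shares by length. Staying within the interval is a weak check, since most alternatives reuse largely the same genes. For members of at least 100 kb the intervals were wide (21.8% to 66% tight, 13.9% to 54.9% early). The setting without the 6 Kcna genes leaves them out by their calls, so its direction was fixed beforehand. The lists do not give the depth behind each domain, so its effect on single calls was not measured.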
